A study of Mus musculus with 2 samples.

Results

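The 10 genes described here encode the Rag GTPases Rraga, Rragc and Rragd, the folliculin complex Flcn, Fnip1 and Fnip2, the mTORC1 proteins Rptor and Mtor, and the MiT/TFE transcription factors Tfeb and Tfe3. They are 10 of the 22609 genes counted. Rragd was chosen by its higher count in the mimic library, read from these same libraries, and by its miR-471-5p seed match. The seed match is read from annotated transcript sequence. The other 9 were chosen by their place in the pathway. The values of Rragd are therefore a description and support nothing. Tfeb and Tfe3 are listed under their older symbols, Tcfeb and Tcfe3, and were matched through the RefSeq synonyms. TM4 is an established mouse Sertoli cell line from testis. The cells were transfected with a miR-471-5p mimic or with a scramble control, and 48 h later RNA bound to Ago2 was immunoprecipitated and sequenced. There was 1 library for each, from TM4 cells alone, and both went through the same Ago2 antibody. The study made the comparison to find mRNAs that miR-471-5p brings to Ago2. RNA from before the pull-down was not analysed here, so the level of an mRNA in the cells and its binding to Ago2 cannot be told apart, nor can fewer cells that express a gene and less RNA per cell.

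Rag GTPases work in pairs on the surface of the lysosome, Rraga or Rragb with Rragc or Rragd. When amino acids are plentiful, the pair binds Rptor and holds the kinase complex mTORC1 on the lysosome, where Mtor can be switched on. Flcn with Fnip1 or Fnip2 makes Rragc and Rragd hydrolyse their GTP to GDP, and the GDP-bound form lets mTORC1 phosphorylate Tfeb and Tfe3 and keep them out of the nucleus. Once in the nucleus, Tfeb and Tfe3 switch on genes of lysosomes and autophagy. In Sertoli cells, lysosomes digest the apoptotic germ cells that these cells engulf.

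Ago2 is guided by the seed of a miRNA, bases 2 to 8. The mature miR-471-5p is shown first because the matches in the 10 genes are read against it. It comes from chromosome X (GRCm38.p6, chrX:66792634-66792655, minus strand), and the capitals mark the seed (RefSeq).
miR-471-5p: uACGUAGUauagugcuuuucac
The seed pairs with the 7mer-m8 match ACTACGT in an mRNA. An A after it makes the 8mer match ACTACGTA, and CTACGT alone is the 6mer match. The 10 genes held 3 matches in their longest 3′-UTRs and coding regions in GENCODE M21 (GRCm38), each in a different gene. They are shown as 30 bases of the mRNA, with the match in capitals.
Rragd, 8mer in the 3′-UTR: actgtactgtcACTACGTAagtgtaaactt
Mtor, 7mer-m8 in the coding region: ggagctccagcACTACGTcaccatggagct
Rraga, 6mer in the coding region: gttcgagagagCTACGTtcttggtgatttc
The Rragd match lay at bases 185 to 192 of a 3′-UTR of 3382 nucleotides, in the last of 7 exons, at chr4:33018983-33018990 on the plus strand of GRCm38. The Mtor match lay at bases 137 to 143 of a coding region of 7650 nucleotides, in exon 2 of 58, at chr4:148452407-148452413 (GRCm38, plus strand). The Rraga match lay at bases 626 to 631 of a coding region of 942 nucleotides, in its only annotated exon, at chr4:86576544-86576549 (GRCm38, plus strand). The genes themselves span chr4:32983037-33022180 for Rragd, chr4:148448611-148557683 for Mtor and chr4:86575668-86577285 for Rraga. Rragc is also on chromosome 4, Flcn, Fnip1 and Rptor are on 11, Fnip2 is on 3, Tfeb on 17 and Tfe3 on X. The counts were made on mm9, so these positions do not carry over to the counted features.

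Of the 11754 measured genes with an annotated 3′-UTR, 48 held an 8mer match there, or 0.408%. Measured genes are those with at least 20 reads in the libraries together. Rragd was the only one of the 10 genes with any match in its 3′-UTR, down to the 6mer, which 8.31% of measured genes held. In coding regions, 4.34% of measured genes held a 7mer-m8 match and 16.3% a 6mer match. Among the 48 genes with an 8mer, 30 had a log2 ratio above 0, where 6086 of all 12186 measured genes did. Of the 48, 9 were at least 2-fold higher in the mimic library, against 3.96% of all measured genes, and 2 at least 2-fold lower, against 3.08%. The 48 and the 9 include Rragd, which ranked 4 from the top and was chosen by this match and its higher count, so nothing is read from its place. Only unbroken matches to the seed were searched.

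**Figure D1:**
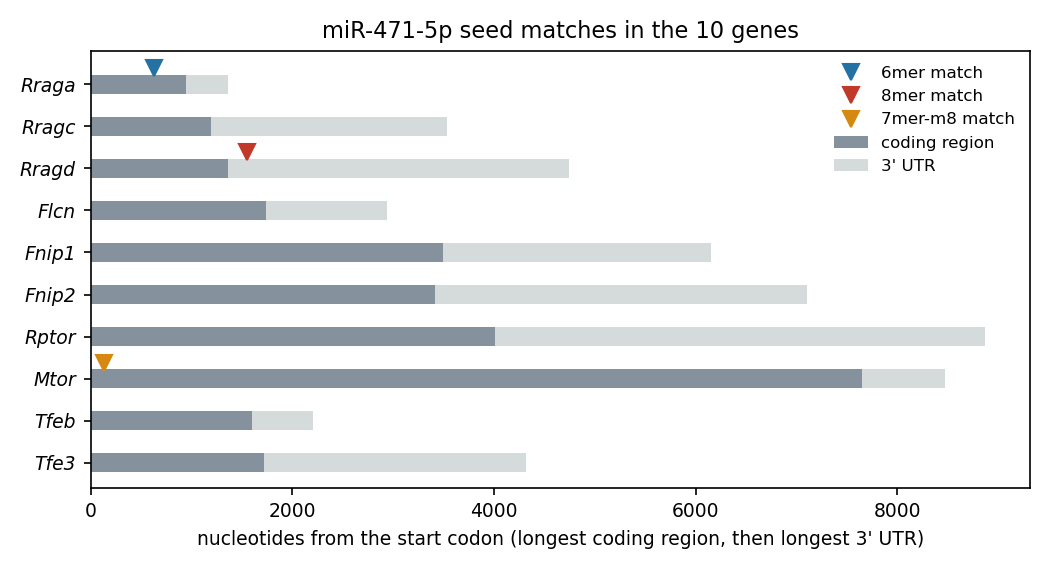
Seed matches of miR-471-5p in the 10 genes. Each bar is the longest coding region (dark) followed by the longest 3′-UTR (light), in nucleotides from the start codon, and the triangles mark matches by class; the longest regions of a gene can come from different transcripts. Rragd holds the 8mer near the start of its 3′-UTR, Mtor the 7mer-m8 near the start of its coding region and Rraga a 6mer in its coding region.

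Among the Rag GTPases, Rragd was 4.73-fold higher in the mimic library, Rraga 1.27-fold higher, and Rragc was within counting error of equal. Rragd, the scarcer partner of Rraga and Rragb, had 52 reads with the mimic and 11 with scramble. That is 2.78 and 0.589 CPM, the usual depth-scaled read count, here with library sizes scaled by TMM, a method that equalizes libraries by the bulk of their genes. Its log2 ratio of mimic to scramble was 2.24, with a 95% interval from 1.28 to 3.33. Intervals for a ratio were exact binomial (Clopper-Pearson) bounds on how a gene's reads divide between the libraries. They cover counting error only, because 1 library per group gives no replicate check and allows no test between groups. The interval of Rragd lay wholly past 2-fold, and the gene stood at percentile 99.4 of the 12186 measured genes.

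Low counts scatter more, and Rragd rests on 63 reads in all. Of the 414 measured genes with 50 to 80 reads over both libraries, a range set after the count of Rragd was seen, 48 were at least 2-fold higher in the mimic library. This is 11.6%, against 3.96% of all measured genes. In that range 11 genes, or 2.66%, had a log2 ratio at or above that of Rragd, which is among them. Rragd shared 0.2% of its 50-base windows with transcripts of other genes in GENCODE M21, and reads that align to several places were given to no gene.

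Rraga, which with Rragb forms the side of the pair that amino acids load with GTP, had 1590 reads with the mimic and 1253 with scramble. Its log2 ratio was 0.34 (0.24 to 0.45). Rragc, the usual partner, had 2503 and 2415 reads and a log2 ratio of 0.05 (-0.03 to 0.13). The interval of Rragc includes 0, so a difference was not detectable at this depth. In GENCODE M21, 7.76% of its 50-base windows also occur in other transcripts, mostly in a gene on the opposite strand, 4930535I16Rik, and whether the counting used strand is not given in the sources used here.

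Rragd and Rragc fill the same place in the pair, and so do Rragb and Rraga. Rragd took 2.04% of the Rragc and Rragd reads in the mimic library (exact binomial interval 1.52 to 2.66%) and 0.453% in the scramble library (0.227 to 0.81%). The intervals do not overlap, but Rragd was chosen by its higher count in these same reads, so nothing is read from this. Rragb, the paralog of Rraga, had 26 reads with the mimic and 41 with scramble. It took 1.61% of the Rraga and Rragb reads with the mimic (1.05 to 2.35%) and 3.17% with scramble (2.28 to 4.27%), and these intervals overlap. The log2 ratio of Rragb was -0.66 (-1.43 to 0.09), so a difference was not detectable at its depth.

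**Figure D2:**
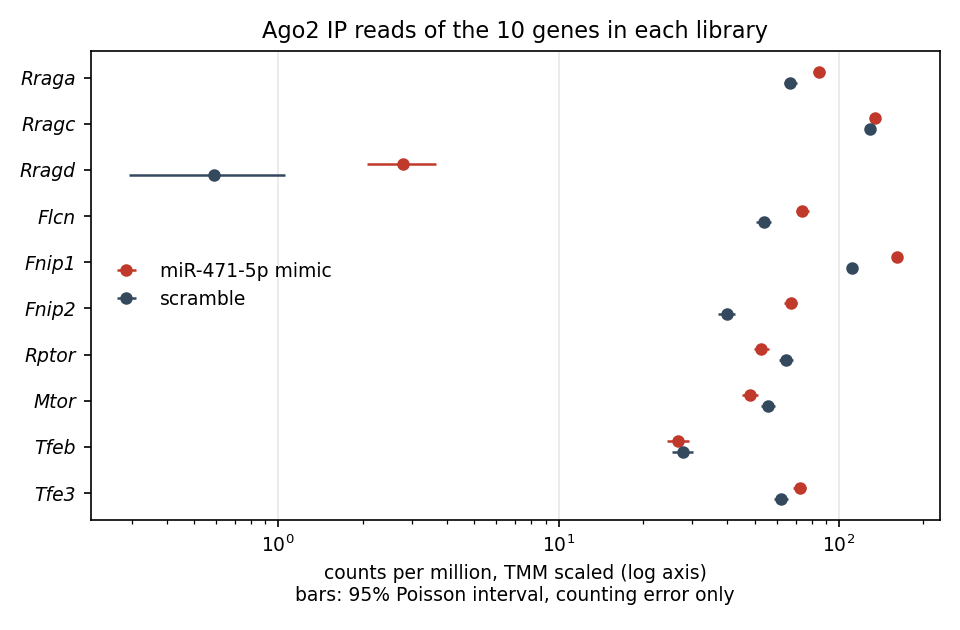
Ago2 IP reads of the 10 genes in CPM, on a log axis, with the mimic library in red and the scramble library in dark gray. Bars are 95% Poisson intervals and cover counting error only. On this axis, which is not scaled by transcript length, Rragd lies far below the other 9 genes in both libraries. It has the widest gap between them, with 2.78 CPM against 0.589, but was chosen by its higher count, so nothing is read from the gap.

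All 3 genes of the folliculin complex were higher in the mimic library, by 1.38-fold to 1.69-fold, where 6086 of the 12186 measured genes had a log2 ratio above 0. Their intervals lay above 0, as for 31.5% of measured genes. Flcn, the subunit that acts on Rragc and Rragd, had 1383 reads with the mimic and 1005 with scramble. Its log2 ratio was 0.46 (0.34 to 0.58). Fnip1, which binds Flcn and is needed for its action, had 3001 and 2075 reads, the most of the 10 genes in the mimic library, and a log2 ratio of 0.53 (0.45 to 0.61). Fnip2, its paralog, had 1256 and 742 reads and a log2 ratio of 0.76 (0.63 to 0.89). None of the 3 passed 2-fold, and their percentiles among measured genes ran from 83.4 for Flcn to 92.6 for Fnip2. Fnip2 made up 29.5% of the Fnip1 and Fnip2 reads with the mimic (28.1 to 30.9%) and 26.3% with scramble (24.7 to 28.01%). The intervals come close without overlapping, but they cover counting error only and say nothing of the spread between replicate libraries. None of these genes held a seed match in either region.

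Both mTORC1 genes were lower in the mimic library, by 1.16-fold to 1.23-fold, where 6100 of the 12186 measured genes had a log2 ratio below 0. Their intervals lay below 0, as for 32.5% of measured genes, and their percentiles were 23.4 for Rptor and 29.6 for Mtor. Rptor, the subunit that Rag GTPases bind, had 986 reads with the mimic and 1208 with scramble, and its log2 ratio was -0.29 (-0.42 to -0.17). Mtor, the kinase, had 897 and 1042 reads and a log2 ratio of -0.22 (-0.35 to -0.09). Mtor held the 7mer-m8 match shown above in its coding region. Both are long mRNAs, of 6594 and 8564 nucleotides, and the direction of Mtor turned when transcript length was taken into account, as given with the length values. For Rptor, 0.596% of the 50-base windows overlap a transcript on the opposite strand.

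Of the MiT/TFE factors, Tfe3 was 1.17-fold higher in the mimic library, and Tfeb was within counting error of equal. Tfeb had 497 reads with the mimic and 517 with scramble, a log2 ratio of -0.06 (-0.24 to 0.12). Tfe3 had 1353 and 1159 reads and a log2 ratio of 0.22 (0.11 to 0.34). Of the other family members, Mitf had 1314 and 954 reads, its log2 ratio being 0.46 (0.34 to 0.58), and Tfec had 0 reads in both libraries. At these depths 3 reads, the most that a count of 0 allows, are 0.161 CPM. Tfe3 made up 42.8% of the reads of the family with the mimic (41.0 to 44.5%) and 44.1% with scramble (42.2 to 46.0%). These intervals overlap.

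Of the 10 genes, 1 was at least 2-fold higher in the mimic library, against 3.96% of all 12186 measured genes, and 0 were at least 2-fold lower, against 3.08%. Rragd was chosen by that difference, so nothing is read from the first count. The counting interval lay above 0 for 6 of the 10 genes, where 31.5% of measured genes did so, and below 0 for 2, where 32.5% did. Intervals that exclude 0 were thus common between these libraries. The median log2 ratio of the 10 genes was 0.28, and that of all measured genes was -0.00063. The 6 genes with an interval above 0 and this median of 0.28 include Rragd. It was chosen by its higher count, so nothing is read from its part in them.

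**Figure D3:**
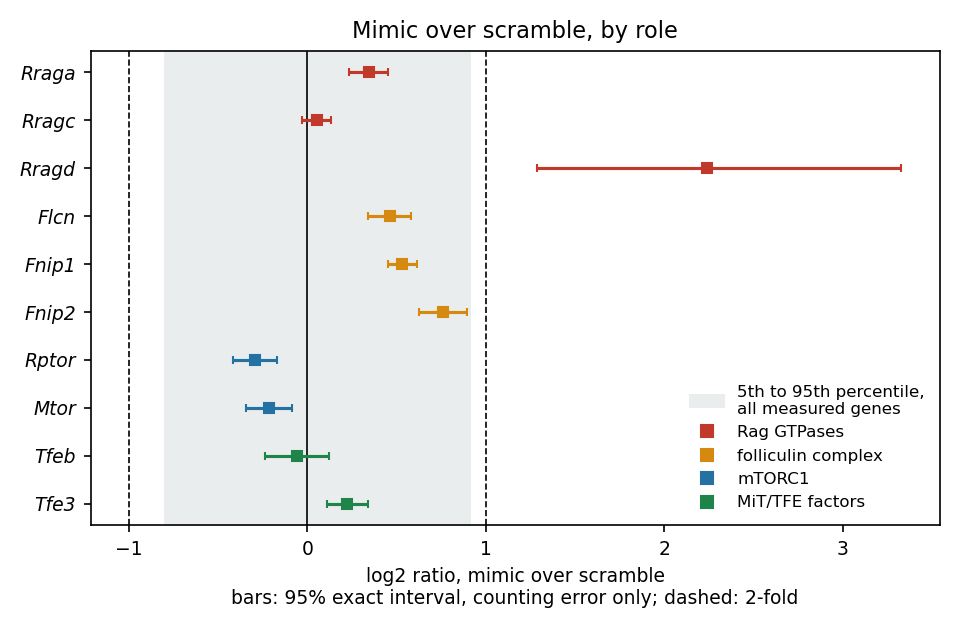
Log2 ratio of mimic to scramble for each of the 10 genes, colored by role, with exact 95% intervals for counting error. The gray band spans the 5th to 95th percentiles of all measured genes, -0.80 to 0.91, and dashed lines mark 2-fold; Rragd lies outside the band, the folliculin genes lie in its upper part and the other 6 lie between -0.29 and 0.34.

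Levels can be compared between genes only per length, here as CPM per kilobase of the longest annotated transcript. In the scramble library Rragc at 43.9 and Rraga at 41.5 were the highest, with overlapping Poisson intervals. Fnip1 followed at 17.8, Flcn at 15.1 and Tfeb at 11.8. Rptor and Tfe3, both at 9.81, could not be ordered, and Mtor at 6.52, Fnip2 at 5.45 and Rragd at 0.117 came last. In the mimic library Rraga at 52.6 was above Rragc at 45.4, Fnip2 at 9.21 was above Rptor at 8.01 and Mtor at 5.61, and Rragd at 0.551 stayed last. Rragc was 376-fold above Rragd per kilobase in the scramble library and 82.5-fold above it in the mimic library. These levels are of RNA recovered with Ago2, and they move with the transcript chosen. For Tfe3 the scramble value was 18.9 on the transcript with the longest coding region.

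Transcript length moved with the log2 ratio across the measured genes. The Spearman correlation of log2 ratio with the longest transcript was -0.422 over 12077 genes, which share both libraries and are a description only. With genes divided by length into 10 groups of equal number, the median log2 ratio was 0.43 in the shortest group and -0.25 in the longest. The 10 genes range from Rraga, with 1618 nucleotides, to Mtor, with 8564. Relative to the median of their own length group, Rragd stood at 2.37, Fnip2 at 1.01, Fnip1 at 0.74, Flcn at 0.51 and Tfe3 at 0.43. On the same scale Rraga stood at 0.12, Mtor at 0.032, Rragc at -0.033, Rptor at -0.086 and Tfeb at -0.16. The folliculin genes and Tfe3 thus stood further above genes of their own length than above all genes, Fnip2 came just past 2-fold, and the lower values of Rptor and Mtor came close to the median of equally long mRNAs.

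**Figure D4:**
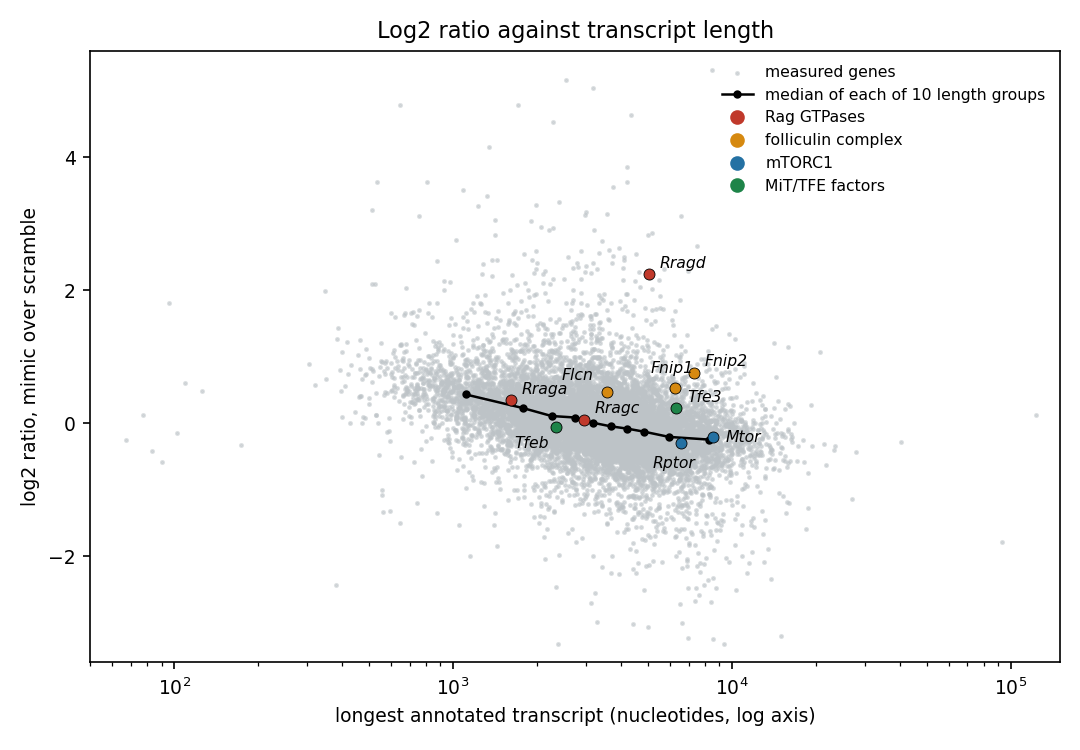
Log2 ratio of mimic to scramble against the length of the longest annotated transcript, on a log axis. Gray points are measured genes, the black line joins the medians of 10 equal groups by length, from 0.43 in the shortest to -0.25 in the longest, and the 10 genes are colored by role; the folliculin genes, Tfe3 and Rragd lie above the line at their length.

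A list of 40 other genes of the pathway, of which 39 had at least 20 reads, had 0 genes at least 2-fold higher and 1 at least 2-fold lower, against 3.96% and 3.08% of all measured genes. The counting interval lay above 0 for 14 and below 0 for 16, where it did so for 31.5% and 32.5% of all measured genes. The median log2 ratio of the list was -0.12. The gene past 2-fold was Deptor, which binds and inhibits mTORC1. It had 45 reads with the mimic and 227 with scramble, and its log2 ratio was -2.34 (-2.83 to -1.87). Its longest 3′-UTR, of 7136 nucleotides, held no seed match down to the 6mer. Akt1s1, another mTORC1 inhibitor, had 1222 and 879 reads and a log2 ratio of 0.47 (0.35 to 0.60).

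Ragulator anchors the Rag GTPases to the lysosome. All 5 of its subunits had log2 ratios above 0, where 6086 of the 12186 measured genes did, from 0.23 for Lamtor3 to 0.54 for Lamtor5. The interval of Lamtor3 (-0.05 to 0.51) includes 0. These are short mRNAs, of 668 nucleotides for Lamtor2 to 2726 for Lamtor3. The median over Ragulator and the amino acid transporter Slc38a9, 0.32, was 0.02 relative to genes of their length group. That median includes Slc38a9, with 8910 nucleotides, and was not taken for the 5 subunits alone. Slc38a9, which senses arginine in the lysosome, was at -0.36 (-0.53 to -0.20) with 554 and 713 reads. It was the only one of the 39 genes with a 7mer-m8 match in its 3′-UTR, which is 7085 nucleotides long.

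The 6 sensors, which report leucine, arginine or S-adenosylmethionine to the GATOR complexes, all had log2 ratios below 0. Of the 12186 measured genes, 6100 had a log2 ratio below 0. The sensors ran from -0.82 for Castor2, listed as Gatsl2, to -0.12 for Bmt2, listed as B630005N14Rik. The counting interval was below 0 for 5 of the 6, against 32.5% of all measured genes. The median of the sensors was -0.34, and -0.30 relative to genes of their length group. Sesn1, a leucine sensor family member, had 1170 reads with the mimic and 2038 with scramble.

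The GATOR1 complex, which shuts off Rraga, ran from -0.44 for Depdc5 to 0.44 for Nprl2. GATOR2, which restrains GATOR1, ran from -0.52 for Mios to 0.46 for Seh1l, a protein that also belongs to the nuclear pore. In KICSTOR, which places GATOR1 on the lysosome, the highest was Itfg2 at 0.53. The Rheb GTPases, which switch Mtor on at the lysosome, and the TSC complex, which restrains them, ran from -0.36 for Tsc2 to 0.26 for Rhebl1. Calcineurin, the phosphatase that releases Tfeb, and the calcium channel Mcoln1 that feeds it ran from -0.35 for Ppp3r1 to 0.65 for Mcoln1. GATOR1, GATOR2, the group of Rheb and the TSC complex and the calcineurin group each held genes on both sides of 0.

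**Figure D5:**
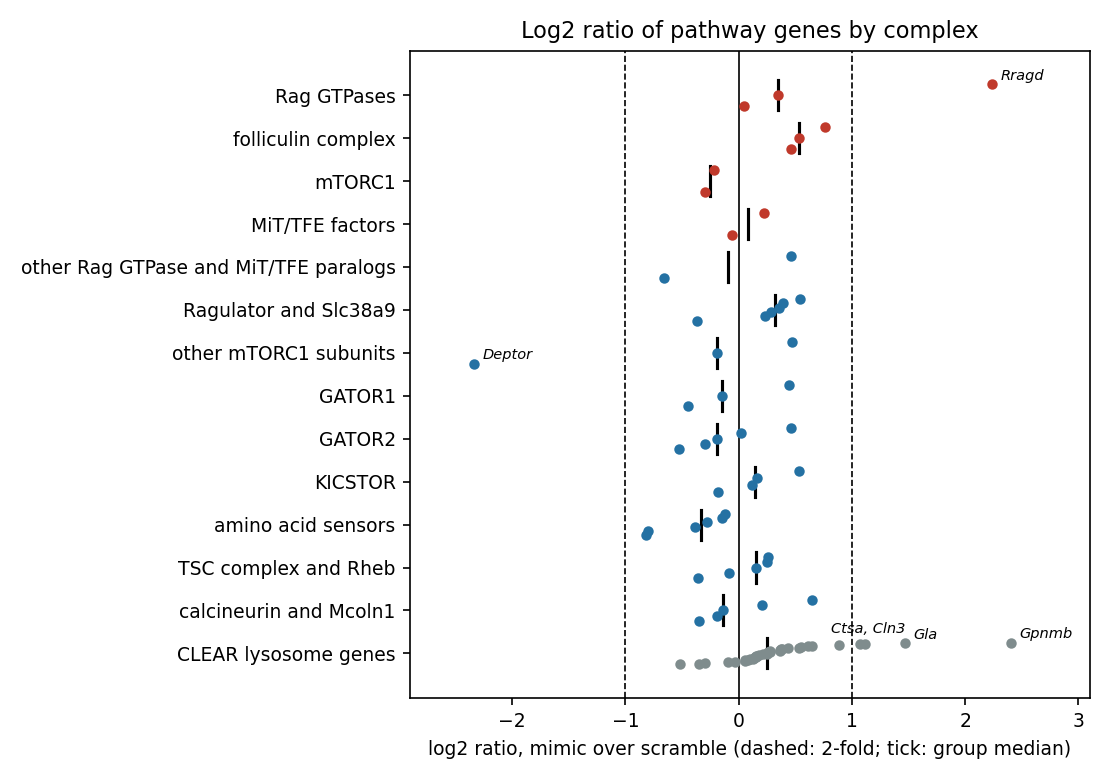
Log2 ratio of mimic to scramble for the 10 genes (red), the other pathway genes (blue) and CLEAR lysosome genes (gray), 1 row per complex, with black ticks at group medians and dashed lines at 2-fold. Rragd at 2.24 and Deptor at -2.34 stand apart from the other genes of the nutrient pathway, and 4 CLEAR genes lie past 2-fold on the higher side.

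CLEAR genes are the lysosome and autophagy genes that Tfeb and Tfe3 are known to switch on. Of 37 listed, 36 had at least 20 reads. Of these, 4 were at least 2-fold higher in the mimic library, against 3.96% of all measured genes, and 0 were at least 2-fold lower, against 3.08%, and 31 had a log2 ratio above 0, where 6086 of the 12186 measured genes did. The counting interval lay above 0 for 24, against 31.5% of all measured genes, and below 0 for 1, against 32.5%. The median was 0.25, and 0.21 relative to genes of their length group. The 4 were Gpnmb, a lysosomal membrane glycoprotein, Gla, which cleaves galactose from glycolipids, Cln3, a lysosomal membrane protein, and Ctsa, a lysosomal carboxypeptidase.

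Gpnmb had 164 reads with the mimic and 31 with scramble, and its log2 ratio was 2.40 (1.84 to 3.01). Gla had 1019 and 368 reads and a log2 ratio of 1.47 (1.30 to 1.64). Cln3 had 147 and 68 reads with 1.11 (0.69 to 1.55), and Ctsa had 6422 and 3057 with 1.07 (1.01 to 1.13). The interval of Cln3 reaches below 2-fold. The lowest of the list was Gusb, a glucuronidase, at -0.51 (-0.67 to -0.35), and Atp6v0d2 had 0 reads in both libraries. The choice of list was made with earlier results of these libraries known.

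Tfeb and Tfe3 bind the E-box CACGTG, most often in the longer form TCACGTGA. Both read the same on either strand. In windows from 250 bases before to 50 bases after each annotated start (RefSeq, GRCm38.p6), all 10 genes had at least 1 window. CACGTG was found in 2 of them, Rragc and Fnip1, and in 7.15% of 32851 windows. The first is a count of genes and the second a share of windows, and Tfeb and Tfe3 had more than 1 window each. TCACGTGA was found in none of the 10 genes and in 0.974% of windows. The 2 matches are shown in 30 bases, with the E-box in capitals.
Rragc, in the window chr4:123917183-123917482 (plus strand), E-box starting at -112: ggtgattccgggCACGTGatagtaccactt
Fnip1, in the window chr11:54437929-54438228 (plus strand), E-box starting at -75: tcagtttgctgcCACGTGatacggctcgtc
Their log2 ratios were 0.05 for Rragc and 0.53 for Fnip1. For the other genes these letters were not in the windows searched, which says nothing of more distant elements.

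The mimic library held 18628310 reads on genes and the scramble library 18717225. Of all entries in the tables, 39.8% with the mimic and 35.6% with scramble aligned to more than 1 place and were given to no gene. Of 15 Sertoli cell markers 14 were matched and 7 had at least 20 reads, 4 with a log2 ratio above 0, among them Sox9 with 1228 and 1070 reads and Wt1 with 73 and 35, and 3 below 0, among them Gata4 with 341 and 365. The summed level of these 7 markers was 779 CPM with the mimic and 978 with scramble, most of it from Kitl, which had 12245 and 16163 reads. The receptor Fshr had 0 reads in both. Of the markers of other testis cells, 1 of 6 for Leydig cells, 2 of 3 for peritubular myoid cells, 3 of 5 for germ cells and 1 of 4 for macrophages had at least 20 reads. In that order, the summed levels of those with at least 20 reads were 3.21, 3913, 6.21 and 0.964 CPM with the mimic. With scramble they were 3.70, 5453, 7.02 and 1.34 CPM. Markers with fewer reads were left out of these sums. Nearly all of the peritubular sum was Acta2, smooth muscle actin. The Leydig cell receptor Lhcgr and the macrophage markers Ptprc and Adgre1 had 0 reads in both libraries. A list of 28 interferon-stimulated genes had a median log2 ratio of 1.32. The part of these differences in the values of the 10 genes was not tested.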

How the data were processed

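Both tables that the authors deposited hold unnormalized read counts for gene symbols. Their HTSeq summary rows, 47.3% of entries with the mimic and 44.1% with scramble, were left out of library sizes. The submitters' processing notes name CASAVA 1.8.2, TopHat2 2.0.8b and HTSeq on mm9. The gene annotation, strand setting and read length are not given in the sources used here. A minimum of 20 counts in all left 12186 of 22609 genes, called measured genes. Library sizes were scaled by TMM in edgeR 4.0.16 (R 4.3.3). With 1 library a group, edgeR had no spread to fit its quasi-likelihood test on, so no p-value is given, and a difference of 2-fold (1 on the log2 scale) stands in for a call. Intervals are 95% and cover counting error only; reads are not independent molecules. The calculation was tested on simulated counts. Lengths, 3′-UTRs and coding regions came from GENCODE M21 (GRCm38), matched by symbol or RefSeq synonym for 99.1% of measured genes. The members and all lists were chosen with earlier results of these data known. Named genes were the 10 members, list genes past 2-fold, the highest and lowest of each list and the 3 genes nearest to Rragd with at least 200 counts. Other list genes named to show a group (Akt1s1, Sesn1, Lamtor3, Mitf and markers) were picked after their values were seen. Some listed genes are not reported here. Alternatives were the size factors of DESeq2 1.42.0, total counts, centring by transcript length, other count minimums and folds, other seed matches and other transcripts. Python 3.11.15 was used with scipy 1.17.1.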

Additional observations from a re-analysis of the deposited data

How the results depend on the processing

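DESeq2 size factors and total counts moved the log2 ratio of the 10 genes by at most 0.00063 and 0.0075 and changed no sign. Both scalings lie so close to TMM that this is a weak check. Centred on the median of 10 groups by transcript length, the log2 ratio was 0.12 for Rraga, -0.033 for Rragc, 0.74 for Fnip1, 1.01 for Fnip2, -0.086 for Rptor, 0.032 for Mtor and 0.43 for Tfe3, and 2 of the 10 genes changed sign. Past 2-fold on the higher side were 2 of the 10 genes with that centring, 2 at a 1.5-fold threshold and 0 with at least 200 counts, a minimum that Rragd does not reach. Of the other pathway genes 1 was higher and 4 were lower at 1.5-fold. Of the CLEAR genes 7 were higher at 1.5-fold and 1 at 3-fold. The share of all measured genes past these other rules was not worked out, so nothing is read from these counts. Both counts of 2 among the 10 genes include Rragd, which was chosen by its higher count. Of 97 alternative values in all, 80 stayed within counting error or within 1.5 times of a count, and 0 reversed a difference past 2-fold. The 80 include 18 values with DESeq2 size factors and 18 with total counts, which had almost no room to move. The values for other seed matches all rest on the same match in Rragd. Of the 10 genes only Rragd was past 2-fold, so a reversal was hardly possible. The tally is therefore no measure of robustness. With centring by transcript length, 10 values stayed and 8 moved. Depth limits Rragd most, with 63 reads. No paired analysis was possible because each group has 1 library. The background among genes with 50 to 80 counts was added after seeing the data.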

Other observations

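The 28 interferon-stimulated genes listed, chosen with earlier results known, had 18 members at least 2-fold higher in the mimic library, against 3.96% of all measured genes, and 0 at least 2-fold lower, against 3.08%. Their median was 1.18 relative to genes of their length group. Of the measured genes with at least 200 counts, the 3 nearest to Rragd in log2 ratio, over 2 libraries, were Lcn2 at 2.21, E230016K23Rik at 2.28 and Ifi44 at 2.15. Lcn2, a secreted iron-carrier protein, had 628 reads with the mimic and 136 with scramble. Ifi44, an interferon-induced gene, had 297 and 67, and E230016K23Rik had 219 and 45. With 2 libraries, likeness here means only a similar ratio.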
